A study of Mus musculus with 5 samples.

Results

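The genes described here are 10 markers and transcription factors of the uterine stroma, the fibroblast layer between the epithelium and the muscle: Twist1, Twist2, Tcf21, Hand2, Pdgfra, Pdgfrb, Vim, Thy1, Dcn and Lum. They were chosen by name, and every probe that the array files list as TWIST1, TWIST2, TCF21, HAND2, PDGFRA, PDGFRB, VIM, THY1, DCN or LUM was taken, which gave 17 of the 45281 probes of the array and 10 of its 29527 gene names. RNA came from whole uteri of 15-day-old mice, and both groups shared a hybrid C57BL/6J;129S5/Brd background. There were 2 pools of uteri with a Cre knockout of Dicer (Dicer cKO pools 10 and 12) and 3 pools labelled as wild type controls (control pools 7, 9 and 11). Each pool was read on 1 Illumina bead array. The study's title places Cre under the progesterone receptor, so the knockout acts in cells that express this receptor, which in the uterus can include epithelium, stroma and muscle. The sources used here do not give how many uteri formed a pool, nor whether control animals carried Cre or a floxed Dicer allele. The spread behind each p-value is that between pools.

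Endometrial stromal fibroblasts derive from the mesenchyme of the Müllerian duct, which in young mice also instructs the overlying epithelium. They are known by an intermediate filament, vimentin, by receptors for platelet-derived growth factors, by small proteoglycans laid down around collagen fibrils, and by basic helix-loop-helix (bHLH) transcription factors, which bind DNA in pairs with E proteins at E-box sequences. Dicer cuts microRNA precursors into mature microRNAs, which lower the levels of many messenger RNAs.

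In Dicer cKO uteri, 4 of the 10 genes fell and none rose: Vim, Thy1, Twist2 and, by a smaller amount, Tcf21. Over the whole array, 3.96% of 15733 genes fell and 2.78% rose. A gene is said to have risen or fallen, or to be called, where its p from limma was under 0.05 once adjusted (Benjamini-Hochberg) for the 15733 genes tested, and 6.74% of genes were called in either direction. The difference between Dicer cKO and control had a median of -0.26 on the log2 scale over the 10 genes, beside 0.01 over all genes. Both Dicer cKO pools lay below every control pool for 7 of the 10 genes, where 17.6% of all genes did, and above every control pool for 0 of the 10, where 19.9% of all genes did. Pdgfra, Pdgfrb and Twist1 were the members whose groups overlapped. In RNA from whole uteri, fewer stromal cells and less RNA per cell cannot be told apart.

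Between 47.0% and 49.5% of the probes were detected on an array, where detected means a detection p under 0.05. All 10 genes had at least 1 probe detected on all 5 arrays, so none entered the test through 1 group alone. Of the 17 probes, 14 were detected on all 5 arrays, and the other 3, second probes of Vim, Thy1 and Pdgfra, were detected on none. The array's own bead error was small beside the differences called: the standard error over the 27 to 64 beads of a probe lay between 2.11% and 8.41% of its intensity for the probes used. As a check of the labels, Dicer1 read 8.62 and 8.75 log2 units in Dicer cKO pools 10 and 12, against 9.15, 9.08 and 9.12 in control pools 7, 9 and 11 (limma adjusted p = 0.0224). Leaving out Dicer cKO pool 10 ended this call (limma adjusted p = 0.175), as did leaving out any 1 control pool. The Dicer1 call was also lost with the mean of a gene's kept probes in place of the brightest. The same held with median scaling between arrays and without the intensity trend. The position of the Dicer1 probe used relative to the deletion is not known, so Dicer1 is a limited check. Pgr, the receptor gene whose promoter drives Cre, read 7.65 and 7.88 in Dicer cKO pools 10 and 12, against 8.31, 8.72 and 8.56 in control pools 7, 9 and 11, a difference of -0.77 ± 0.14 (limma adjusted p = 0.00896) that was not called once Dicer cKO pool 10 was left out (0.111).

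The stretches just before the start of 4 members are shown because Twist2 and Twist1 are close relatives of which the first was called and the second was not, Vim had the largest difference, and Hand2 was the one of these 4 with E-boxes. Each is the 250 bases before the RefSeq gene start on build GRCm38.p6, written 5′ to 3′ on the strand of the gene. Capitals mark matches to the E-box CANNTG, to the GC box GGGCGG or its reverse complement CCGCCC, and to TATAAA or its reverse complement TTTATA. Such sequences were taken for 6 of the 10 genes.
Twist2, chr1:91801211-91801460 (+ strand): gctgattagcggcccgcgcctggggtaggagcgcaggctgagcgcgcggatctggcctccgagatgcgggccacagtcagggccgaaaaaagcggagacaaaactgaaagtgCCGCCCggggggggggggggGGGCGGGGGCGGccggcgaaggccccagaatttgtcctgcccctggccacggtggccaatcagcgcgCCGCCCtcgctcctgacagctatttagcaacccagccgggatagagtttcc
Twist1, chr12:33957421-33957670 (+ strand): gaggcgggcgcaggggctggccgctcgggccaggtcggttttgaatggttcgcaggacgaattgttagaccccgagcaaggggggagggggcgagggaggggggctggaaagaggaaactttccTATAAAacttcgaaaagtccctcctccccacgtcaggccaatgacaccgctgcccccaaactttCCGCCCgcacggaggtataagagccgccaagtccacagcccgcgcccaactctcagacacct
Vim, chr2:13574061-13574310 (+ strand): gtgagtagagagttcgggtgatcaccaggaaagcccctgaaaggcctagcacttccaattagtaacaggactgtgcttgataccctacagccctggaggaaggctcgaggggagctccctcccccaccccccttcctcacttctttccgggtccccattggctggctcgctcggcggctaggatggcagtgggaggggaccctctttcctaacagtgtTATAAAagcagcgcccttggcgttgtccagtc
Hand2, chr8:57320733-57320982 (+ strand): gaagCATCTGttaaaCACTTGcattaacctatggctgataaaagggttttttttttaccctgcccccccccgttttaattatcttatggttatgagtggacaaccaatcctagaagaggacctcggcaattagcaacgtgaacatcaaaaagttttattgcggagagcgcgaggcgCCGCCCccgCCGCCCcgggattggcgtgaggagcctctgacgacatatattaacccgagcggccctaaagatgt
The Twist2 stretch held 4 GC boxes and was 68.8% G or C. That of Twist1 held 1 GC box and 1 TATAAA and was 62.4% G or C. Vim had 1 TATAAA and 0 GC boxes, and Hand2 had 2 GC boxes and 2 E-boxes, which start 246 and 235 bases before the gene start. An E-box was present in 66.2% of 32851 such stretches of mouse genes, a GC box in 32.7% and a TATA match in 12.4%. A match is a description of the letters in this window and no test of binding. RefSeq places Tcf21 at chr10:22817263-22820143, Pdgfra at chr5:75151322-75198206, Thy1 at chr9:44043384-44048579, Dcn at chr10:97479500-97518163 and Lum at chr10:97565501-97572703 on the same build.

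Of the bHLH factors, Twist2 fell and Twist1 was not called. Twist2, also known as Dermo1, a factor of dermal and other mesenchyme that holds back differentiation in mice, read 9.24 and 9.31 log2 units in Dicer cKO pools 10 and 12, against 9.97, 9.99 and 9.97 in control pools 7, 9 and 11. The control pools lay within 0.02 of each other and both Dicer cKO pools lay far below them. The difference was -0.70 ± 0.08 (SE; limma adjusted p = 0.000948), a 1.63-fold lower signal in Dicer cKO uteri. Twist1, its close relative and a factor of mesoderm and of mesenchymal transition, read 8.56 and 8.69 in Dicer cKO pools 10 and 12, against 8.56, 8.65 and 8.49 in control pools 7, 9 and 11. These values overlap, and the difference of 0.06 ± 0.10 had a 95% interval from -0.17 to 0.28 (limma adjusted p = 0.805).

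Set against Twist1 within each pool, Twist2 stood 0.68 and 0.62 log2 units apart in Dicer cKO pools 10 and 12, against 1.41, 1.34 and 1.48 in control pools 7, 9 and 11. The groups did not overlap, and this gap was smaller by 0.76 ± 0.06 (SE) in Dicer cKO uteri. Only the change of such a gap is read here, since the signals of different probes are not on a common scale. In an exact permutation test over the 10 splits of 5 pools, the p of the smaller tail was doubled to make it 2-sided. The permutation p was 0.2, the smallest this doubling allows with these pools. Benjamini-Hochberg adjustment over the 3 pairs of related members compared made it 0.6.

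Tcf21, a bHLH factor of fibroblast precursors in several mouse organs, read 9.93 and 10.01 in Dicer cKO pools 10 and 12, against 10.35, 10.22 and 10.34 in control pools 7, 9 and 11. The groups did not overlap. The difference was -0.33 ± 0.08 (limma adjusted p = 0.0425), and this call was lost in 9 of the 15 alternatives, among them each of the 5 that leave out a pool (limma adjusted p from 0.067 to 0.258). Hand2, which in adult mouse uterine stroma acts below the progesterone receptor and restrains growth of the epithelium, read 7.33 and 7.31 in Dicer cKO pools 10 and 12, against 7.53, 7.45 and 7.57 in control pools 7, 9 and 11. Both Dicer cKO pools were below the controls, yet the difference of -0.19 ± 0.11 was not called (limma adjusted p = 0.380), with a 95% interval from -0.44 to 0.06.

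**Figure D1:**
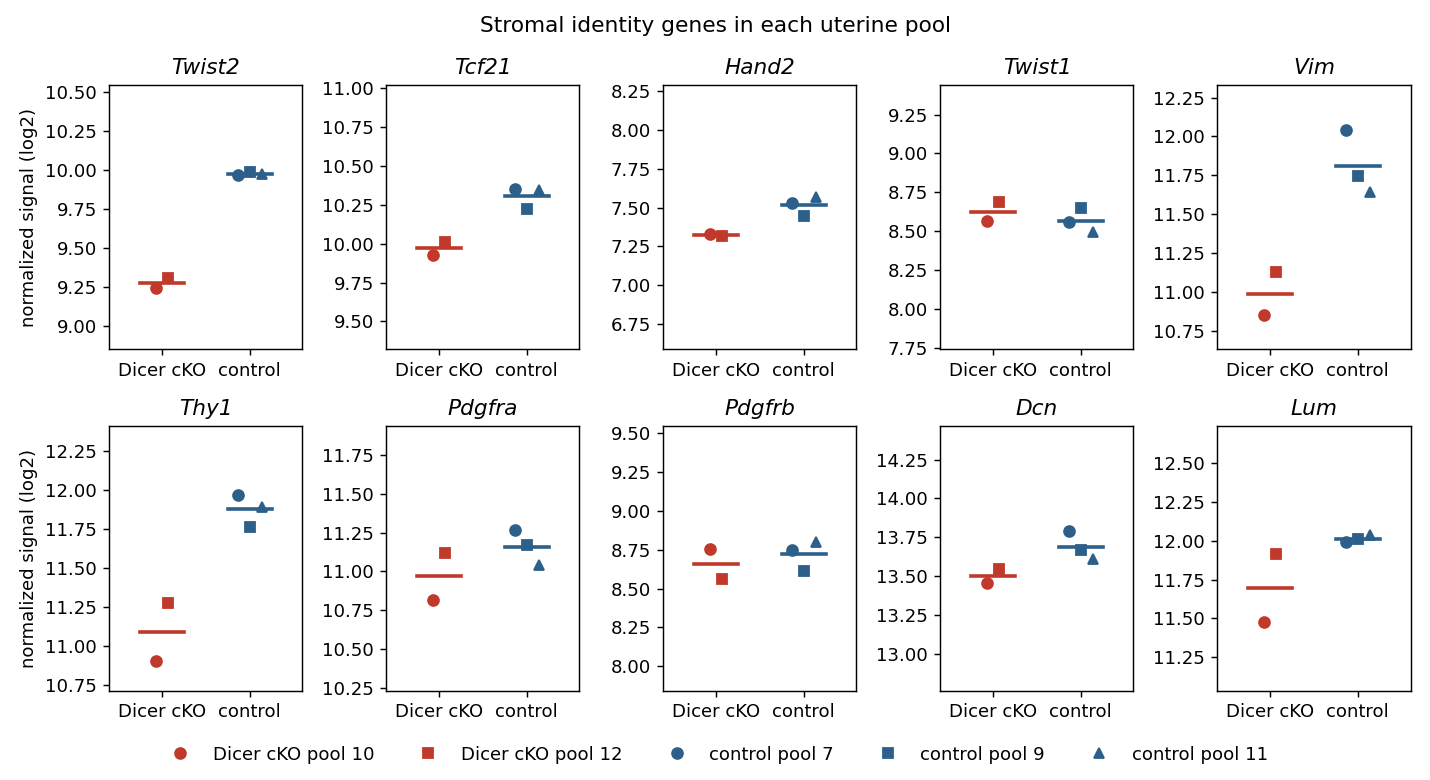
Normalized log2 signal (y axis) of the 10 stromal identity genes in Dicer cKO pools (left, red) and control pools (right, blue). Each point is 1 pool and each bar the mean of its group, and all panels span the same number of log2 units. Twist2, Vim and Thy1 show the widest gaps between the groups, while the pools of Twist1, Pdgfra and Pdgfrb overlap.

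The 2 members with the largest differences were Vim and Thy1. Vim encodes vimentin, the intermediate filament of mesenchymal cells. Its deposited bead intensity was 1766 and 2294.5 in Dicer cKO pools 10 and 12, against 4671, 3445 and 3011 in control pools 7, 9 and 11. After normalization these stood at 10.85 and 11.13 log2 units in the Dicer cKO pools, against 12.04, 11.75 and 11.64 in the control pools. The highest Dicer cKO pool lay below the lowest control pool, although the control pools spanned 0.40. Vim fell by 0.82 ± 0.12 (limma adjusted p = 0.00383), a 1.76-fold lower signal. Without Dicer cKO pool 10 the difference was -0.68 and was not called (limma adjusted p = 0.0607).

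Thy1 encodes a surface protein of fibroblasts, which T cells and neurons also carry in mice. Its intensity was 1823 and 2551 in Dicer cKO pools 10 and 12, against 4457, 3504 and 3545 in control pools 7, 9 and 11. On the log2 scale it read 10.90 and 11.28 in the Dicer cKO pools, against 11.97, 11.77 and 11.89 in the control pools, again with no overlap. Thy1 fell by 0.79 ± 0.11 (limma adjusted p = 0.00264), a 1.72-fold lower signal, and it was called in all 15 alternatives, as was Twist2. The undetected second probes of Vim and Thy1 differed by -0.04 and -0.12 and carry no information on the genes.

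Both cell types were looked for by other markers. Of 8 T cell markers 5 were measured, with a summed signal between 258 and 326 in Dicer cKO pools and between 283 and 336 in control pools, and none was called. Among the 5, Cd247, named after its values were seen, passed the detection filter through 2 control pools alone. Cd2, Cd5 and Trac did not pass the detection filter, while Lck, a kinase of T cell receptor signalling, differed by -0.09 ± 0.14 and Cd3e, a subunit of that receptor, by 0.03 ± 0.14. Of 10 neural markers 4 were measured and none was called, with a summed signal of 214 to 219 in Dicer cKO pools and 208 to 270.1 in control pools. Syt1, a synaptic vesicle protein, differed by -0.51 ± 0.17 and Stmn2, a neuronal tubulin-binding protein, by -0.11 ± 0.13. Their part in the Thy1 result was not tested.

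Neither receptor for platelet-derived growth factor was called. Pdgfra, which marks fibroblasts, read 10.82 and 11.12 in Dicer cKO pools 10 and 12, against 11.27, 11.17 and 11.04 in control pools 7, 9 and 11. Pool 12 lay inside the range of the controls. The difference was -0.19 ± 0.10, with a 95% interval from -0.42 to 0.04 (limma adjusted p = 0.346). Pdgfrb, carried by stroma and by the mural cells of vessels, read 8.75 and 8.56 in Dicer cKO pools 10 and 12, against 8.75, 8.62 and 8.80 in control pools 7, 9 and 11. It differed by -0.06 ± 0.11, with a 95% interval from -0.30 to 0.17 (limma adjusted p = 0.797). The Pdgfra to Pdgfrb gap differed by -0.13 ± 0.22 (exact permutation p = 0.8, also 0.8 adjusted).

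Of 5 genes for platelet-derived growth factors and a receptor-like protein, 4 were measured and none was called, with Pdgfa at 0.06 ± 0.11 and Pdgfb at 0.04 ± 0.09. Among 8 mural cell markers measured, Rgs5, a regulator of G protein signalling that marks pericytes, fell by 0.57 ± 0.11 (limma adjusted p = 0.0138) and the other 7 were not called. Leaving out Dicer cKO pool 10 (limma adjusted p = 0.140) or control pool 9 ended the Rgs5 call. The summed signal of the mural cell markers was 3880 to 4597 in Dicer cKO pools and 4389 to 4547 in control pools.

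The matrix proteoglycans lay lower in Dicer cKO pools without being called. Dcn, or decorin, which binds collagen fibrils, read 13.45 and 13.55 in Dicer cKO pools 10 and 12, against 13.79, 13.67 and 13.61 in control pools 7, 9 and 11. The groups did not overlap, and the difference was -0.19 ± 0.07 (limma adjusted p = 0.159). This probe ranked 121 in signal among 15733 genes. In a fit of every kept probe, where 3.52% of 22845 probes were called lower and 2.35% higher, the 3 dimmer probes of Dcn differed by -0.40 ± 0.10, -0.41 ± 0.11 and -0.19 ± 0.22 (limma adjusted p = 0.0528, 0.0615 and 0.713). Every Dcn probe thus lay lower on average, and none was called.

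Lum, or lumican, a related proteoglycan whose gene lies 47337 bases beyond Dcn on chromosome 10, read 11.48 and 11.91 in Dicer cKO pools 10 and 12, against 11.99, 12.01 and 12.04 in control pools 7, 9 and 11. Pool 10 stood clearly below all others and pool 12 just below the controls. The difference was -0.32 ± 0.11 (limma adjusted p = 0.134). It depended on the Dicer cKO pool: without pool 12 it was -0.54 and called (limma adjusted p = 0.00834), and without pool 10 it was -0.10 (limma adjusted p = 0.656). The second Lum probe differed by -0.34 ± 0.13 in the fit of every probe (limma adjusted p = 0.179). The Lum to Dcn gap differed by -0.13 ± 0.16 (exact permutation p = 0.6, 0.8 adjusted).

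Of 11 other small leucine-rich proteoglycans 6 were measured and none was called. They included biglycan (Bgn, -0.31 ± 0.10) and Prelp (-0.25 ± 0.13), and the median of the 6 was -0.26. That median includes Podn, named after its values were seen, which was detected in all 3 control pools and in no Dicer cKO pool. Podn passed the detection filter through the control pools alone, so its difference is not read here. For 8 of the 10 stromal identity genes, Dicer cKO pool 10 read lower than Dicer cKO pool 12.

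A list of 36 other stromal and fibroblast genes shows what else of the stromal signal moved. The list shares Eng with the endothelial markers below. Of 34 measured, 5 fell, 1 rose and 28 were not called, with a median difference of -0.06. The 5 that fell were led by Nt5e (-1.43 ± 0.16; limma adjusted p = 0.000877), which encodes the ectoenzyme CD73 that makes adenosine. Mme, the membrane peptidase CD10 known from human endometrial stroma, fell by 1.14 ± 0.18 (limma adjusted p = 0.00503). Cygb, a fibroblast globin, fell by 0.81 ± 0.09 (limma adjusted p = 0.000632). Pdpn, or podoplanin, at -0.53 ± 0.11, and Mmp2, a gelatinase, at -0.28 ± 0.07, were named after their values were seen. Ly6a, a surface marker of progenitor cells and of interferon responses, rose by 0.66 ± 0.11 (limma adjusted p = 0.00611). Without Dicer cKO pool 10, Nt5e and Cygb were called, and Mme, Pdpn, Mmp2 and Ly6a were not (limma adjusted p from 0.0748 to 0.353). Pdpn also lost its call without control pool 9 or 11, and Mmp2 without any 1 of the 3 control pools.

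None of the 8 collagen genes on the list was called, and their differences ran from -0.30 to 0.24. Summed over the 34 genes, the signal lay between 128438 and 133222 in Dicer cKO pools and between 123703 and 137145 in control pools, which overlap. Summed over the 10 stromal identity genes, it lay between 22038 and 25216.5 in Dicer cKO pools and between 28961 and 32076.5 in control pools, with no overlap. The brightest probes weigh most in these sums.

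To set each member beside the stromal signal of its own pool, the mean log2 signal of the 34 other stromal genes was subtracted from every gene in that pool and all 15733 genes were tested again. That mean stood at 10.54 and 10.63 in Dicer cKO pools 10 and 12, against 10.69, 10.70 and 10.76 in control pools 7, 9 and 11. The step moved the median difference of all genes to 0.15, and 2.77% of genes were then called lower and 7.74% higher. On this scale 3 of the 10 members were lower: Vim by -0.69 ± 0.12, Thy1 by -0.65 ± 0.10 and Twist2 by -0.57 ± 0.09 (limma adjusted p = 0.00666, 0.00304 and 0.00319). Tcf21 stood at -0.20 ± 0.09 and was not called (limma adjusted p = 0.165), nor were the remaining 6, whose values ran from -0.19 for Lum to 0.19 for Twist1. Without Dicer cKO pool 10, Twist2 was the member still called on this scale (limma adjusted p = 0.0358), while Thy1 and Vim were not (0.0631 and 0.140).

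**Figure D2:**
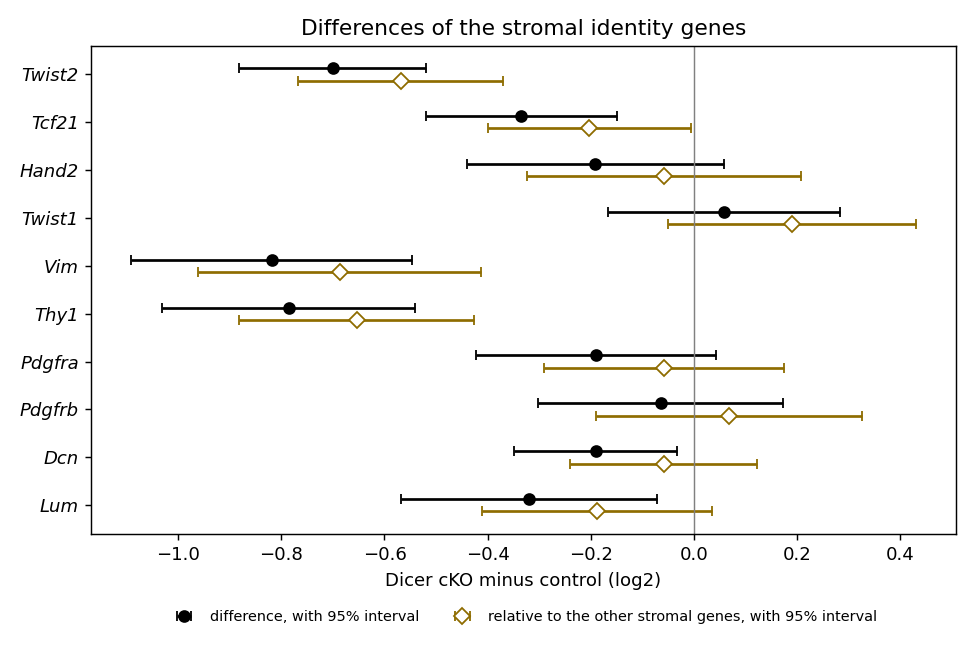
Difference between Dicer cKO and control (x axis, log2) for each stromal identity gene, with 95% intervals from the limma fit. Filled circles give the difference itself and open diamonds the difference relative to the mean of 34 other stromal genes. Vim, Thy1 and Twist2 lie between -0.57 and -0.82 on both scales, while Twist1 lies at 0.06 and 0.19.

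The bHLH members pair with E proteins, which Id proteins can sequester. Of 8 E protein, Id and Hand genes, matched by name, 7 were measured and none was called. The probe named Tcf3 differed by -0.00 ± 0.10 and that named Tcf4 by -0.03 ± 0.07. The array lists some genes under older names, and probe sequences were not available. Whether these probes read E protein genes was therefore not checked. Of 27 other transcription factors of uterine stroma or mesenchyme, 21 were measured and none was called. At an unadjusted limma p under 0.05, 2 were lower and 1 higher, where 3266 of all 15733 genes were under that p. The median of the 21 was -0.01, with the odd-skipped factor Osr2 at -0.28 ± 0.08 (limma adjusted p = 0.0689) and Hoxd10 at -0.01 ± 0.08. Of 4 fibroblast growth factor genes that Hand2 is reported to hold down in adult mouse stroma, 3 were measured. The Fgf9 probe was above background in both Dicer cKO pools and in none of the control pools. It passed the detection filter through the Dicer cKO pools alone, so neither a size nor a test is given for it. Fgf1 (-0.19 ± 0.20) and Fgf18 (-0.36 ± 0.13) were not called. Of 8 intermediate filament genes other than Vim, 5 were measured and none was called, with desmin (Des) at 0.09 ± 0.07 and nestin (Nes) at 0.07 ± 0.11.

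Markers of the other cell types in a uterus moved to different extents. None of 11 smooth muscle markers measured was called, with Acta2, the smooth muscle actin, at 0.07 ± 0.05 and the creatine kinase Ckb at 0.03 ± 0.07. Their summed signal was 81909 to 83713 in Dicer cKO pools and 79769 to 80051 in control pools. Acta2 read 14.36 in both Dicer cKO pools and 14.28 in control pools 9 and 11. Quantile normalization sets such values by rank, so small differences among the brightest probes, which weigh most in this sum, say little. Of 12 endothelial markers Vwf, the von Willebrand factor gene, fell by 0.59 ± 0.13, which ended as a call when Dicer cKO pool 10 (limma adjusted p = 0.261) or control pool 7 or 9 was left out. Their summed signal overlapped between groups, at 15055 to 16308 in Dicer cKO pools and 15309 to 16589 in control pools. None of 6 mesothelial markers was called, with the uroplakin genes Upk3b at 0.08 ± 0.12 and Upk1b at 0.02 ± 0.12, and their summed signal was 935 to 1181 in Dicer cKO pools and 928 to 1075 in control pools.

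Epithelial markers went both ways, 4 lower and 3 higher of 12 measured. The tight junction gene Cldn3 (-1.48 ± 0.17) and the keratin gene Krt18 (-0.86 ± 0.09) fell, while the keratin gene Krt7 rose by 0.57 ± 0.14. With Dicer cKO pool 10 left out Krt7 was not called (limma adjusted p = 0.304), nor was it without Dicer cKO pool 12 or control pool 9 or 11. The summed epithelial signal was 9085 to 9381 in Dicer cKO pools and 10715 to 13825 in control pools.

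Fat can stay attached to a dissected uterus. Of 6 adipocyte markers measured, 3 fell and none rose: the adipokine Adipoq (-1.42 ± 0.30), the complement protease Cfd (-1.38 ± 0.34) and the triglyceride enzyme Dgat2 (-0.52 ± 0.11). The other 3 were not called, and the groups overlapped for Lipe and Lep, named after their values were seen. Without Dicer cKO pool 10 none of these 3 was called (limma adjusted p from 0.187 to 0.334), and calls of Cfd and Dgat2 were also lost without control pool 7. Cfd lost it without control pool 9 as well, and Dgat2 without control pool 11. The summed adipocyte signal was 2035 to 3053 in Dicer cKO pools and 4115 to 5939.7 in control pools, with Fabp4, Plin1 and Retn below the detection filter. Fat also holds fibroblasts that can carry Thy1, Vim and Pdgfra. Dicer cKO pool 10, the lowest in summed adipocyte signal, was also the lowest in Vim, Thy1, Lum, Twist2, Tcf21, Pdgfra and Dcn. It was not the lowest in Hand2, Twist1 or Pdgfrb, and the part of fat in the stromal values was not tested.

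Macrophages also carry vimentin. Of 9 macrophage markers measured, 3 rose and 1 fell: Lyz2 (0.83 ± 0.13), Cd68 (0.81 ± 0.13) and the complement gene C1qb (0.56 ± 0.13) were higher and Cd14 (-1.81 ± 0.18) lower. The C1qb call was lost without Dicer cKO pool 12 or without control pool 7 or 9. The summed macrophage signal was 3295 to 4197 in Dicer cKO pools and 3235 to 3679 in control pools.

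**Figure D3:**
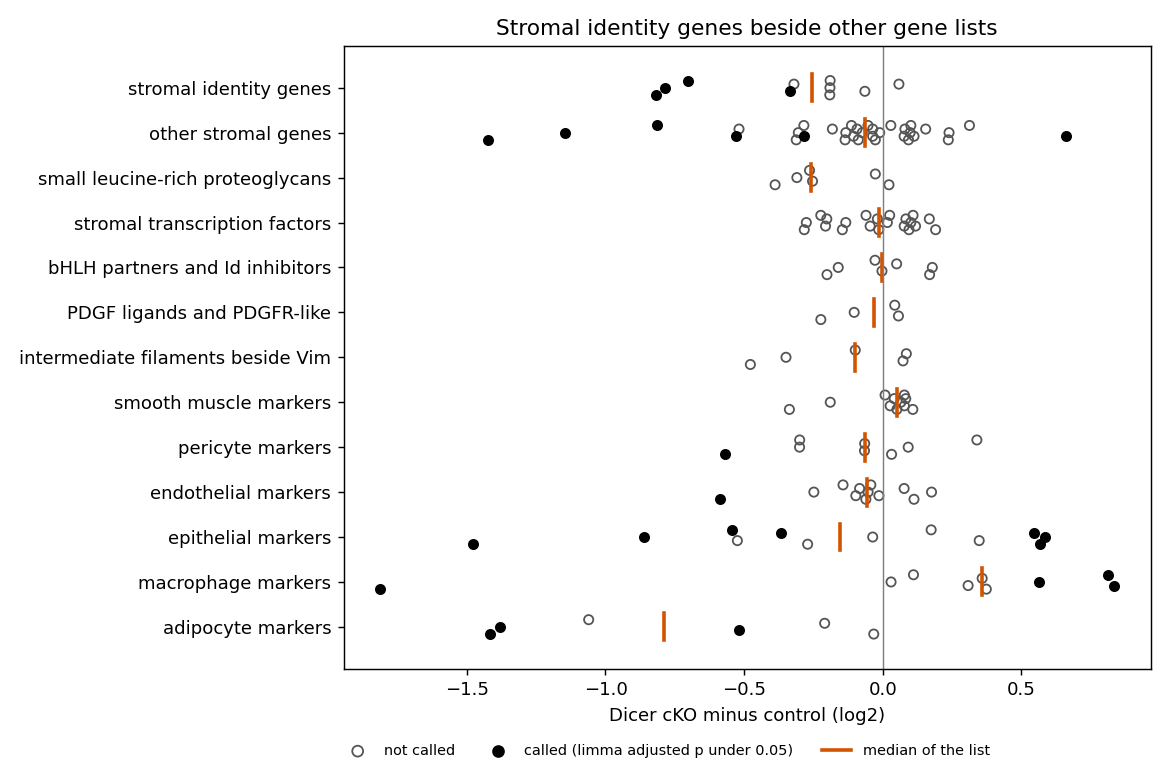
Difference between Dicer cKO and control (x axis, log2) for each measured gene of the stromal identity set and of 12 other lists (rows). Filled points were called by limma, open points were not, and orange bars are the median of each list. The proteoglycan gene Podn was detected in control pools alone. Stromal identity genes reach -0.82 and other stromal genes -1.43, while stromal transcription factors and smooth muscle markers hold no called gene.

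The genes whose profile over the 5 pools was nearest to that of each called member were found by the root mean square distance between log2 profiles, each centred on its own mean. Nearest to Vim were Cd9, a tetraspanin, 2610035D17Rik and the small GTPase gene Rac3, at distances from 0.042 to 0.046 log2 units. Nearest to Thy1 were 2310001H17Rik, the bone morphogenetic protein co-receptor gene Rgmb and Plac8 (0.039 to 0.055). For Twist2 they were Spdya, Fzd10os and the zinc finger gene Bcl11a (0.032 to 0.051), and for Tcf21 they were Nab1, Dlg3 and Cenpv (0.013 to 0.016). Spdya read 4.66 and 4.78 log2 units in Dicer cKO pools 10 and 12, where the undetected second Thy1 probe read 4.68 and 4.70. The match of Spdya to Twist2 may thus rest on the background level in those pools. None of these 12 genes was on any list used here.

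**Figure D4:**
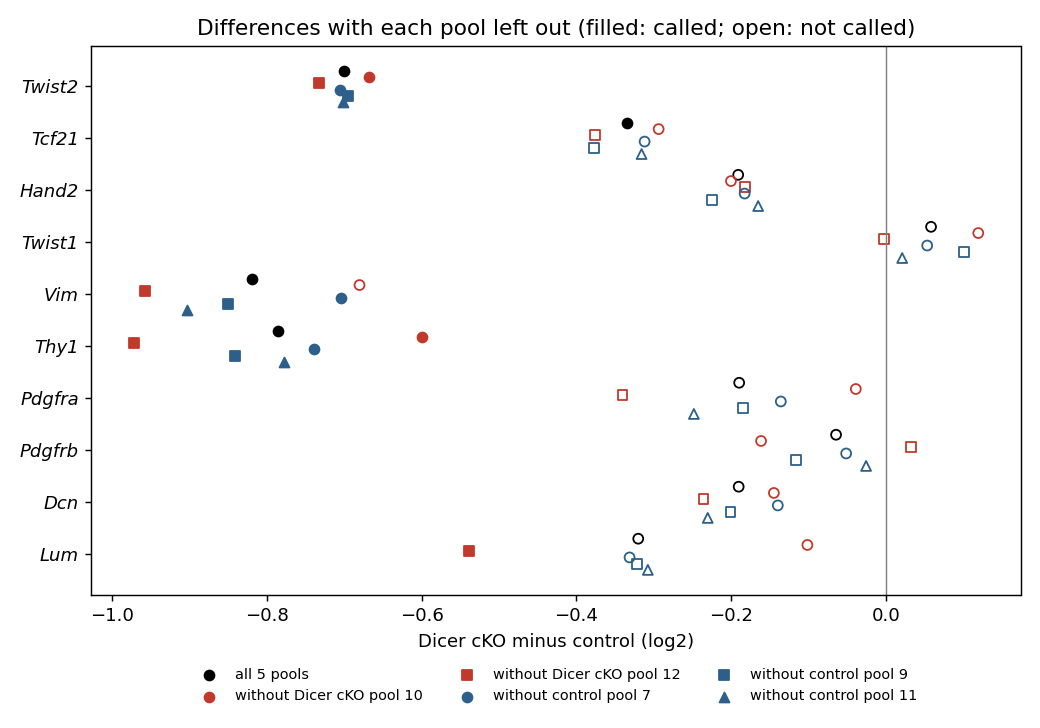
Difference between Dicer cKO and control (x axis, log2) for each stromal identity gene with all 5 pools and with each pool left out in turn. Filled symbols were called by limma and open symbols were not. Thy1 and Twist2 are called in all 6 fits, Vim is open without Dicer cKO pool 10 and Tcf21 is filled only with all pools.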

How the data were processed

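Uterine RNA of 2 Dicer cKO pools and 3 control pools was read on 1 array each. Per the file headers, the authors deposited for each probe a mean bead intensity, its bead SD, the number of beads and a detection score, a fraction from 0 to 1; per the submitters' processing notes BeadStudio was used. The values show no background subtraction or scaling between arrays. The labels name a human array, but the gene names of the files fit mouse genes. The series' own value table was not used, because its identifiers differ from those of the array files.

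Here 1 minus the score was taken as detection p. Background correction (normexp, offset 16), quantile normalization and log2 were done with neqc of limma 3.58.1 in R 4.3.3. Probes detected on at least 2 of 5 arrays (22845 of 45281) were kept, names were updated through RefSeq (GRCm38.p6), and the brightest probe stood for a gene, giving 15733 genes. Groups were compared with lmFit and eBayes with an intensity trend, 2-sided, without covariates. The code was tested on simulated data. Summed signals are normalized linear signals minus the offset. The number of arrays limits the precision. No slide or scan information was found, so no batch could be tested. Between pools of 1 group, the median squared difference over its bead variance was 1.33 to 1.97, beside 0.455 for bead error alone. No arrays held identical values; whether pools are separate libraries rests on the labels.

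Members, lists and tests were chosen with earlier results of these data known. Named were all members, from each list the called genes of largest difference, up to 4 (or, with none called, the 2 brightest), the 3 nearest profiles of each called member, and Dicer1 and Pgr. A gene that this rule names is not reported here.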

Additional observations from a re-analysis of the deposited data

How the results depend on the processing

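Under 15 alternatives, no called difference of a stromal identity gene changed sign. Thy1 and Twist2 were called in all 15, Vim in 14 and Tcf21 in 6, while Lum was called in 1. With 1 pool left out, 303 to 992 genes were called (303 with Dicer cKO pool 10 left out, 619 with control pool 7 and 653 with control pool 9 left out, against 1061 with all pools). The members called lower numbered 2 to 4 and the other stromal genes 2 to 5 lower and 0 to 2 higher, and relative to the other stromal genes 1 to 4 members were lower. Without Dicer cKO pool 10 the lone remaining pool is assumed to vary like the others, and 2 members were lower, or 1 relative to the other stromal genes. Without the intensity trend, 3 other stromal genes were called lower, and without control pool 11 there were 3 lower and 2 higher. The cause was not tested. The median difference of the members ran from -0.36 to -0.18 over these settings. Relative to the other stromal genes, 1218 genes were called higher and 436 lower, against 438 higher and 623 lower without that step. That split varied widely: 144 higher and 121 lower without Dicer cKO pool 10, 1647 and 370 without Dicer cKO pool 12, 2286 and 493 with undetected probes kept, and 667 and 319 without the intensity trend. With the median of these genes in place of their mean, a choice made after seeing the data, it was 2910 higher and 342 lower, and 3 members were again lower. No paired analysis was possible because the groups share no pool number. The 2 Dicer cKO and 3 control pools limit what differences can be called.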
